A study of Mus musculus with 4 samples.

Results

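CD90+ fibroblasts (FB) are a subset of the mesenchymal stromal cells (MSC) in the lamina propria (LP) of the mouse colon, named for *Thy1*, which encodes CD90. They were selected here by a rule on single-cell transcripts and are called the CD90 gate. A colonic cell was a member if it had at least 500 genes, at least 1000 unique molecular identifiers (UMIs) and at most 10% mitochondrial UMIs, at least 1 UMI of *Col1a2* and at least 1 UMI of at least 2 of the 5 markers *Thy1*, *Stmn2*, *Hapln1*, *Edil3* and *Osr1*, of which 1 had to be *Thy1* or *Stmn2*. It also had 0 UMIs of *Pi16* and *Ackr4* and a UMI of at most 1 of the 4 genes *Sox6*, *F3*, *Foxl1* and *Bmp7*. The rule took 2069 cells (414 in colon replicate 1 and 1655 in colon replicate 2) out of 15119 colonic cells that passed the quality limits and 32216 such cells in the series. The other 12577 colonic cells with a *Col1a2* UMI served as the comparison. Since the 12 genes of the rule chose the members, their values are a description, and none of them was tested.

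The series holds 4 droplet libraries of MSC, 2 from small intestine (SI) and 2 from colon, from untreated C57BL6/Nrj mice that were 8 to 10 weeks old. There were 2 independent experiments, each with 3 female mice that were pooled. After removal of the muscularis externa, live cells were sorted that lacked CD45, Ter119, CD31, BP3, EpCAM and L1CAM and carried Itgb1, a gate set against hematopoietic, endothelial, epithelial and glial cells. RNA of other cell types remained, as the 277 and 196 colonic cells without a *Col1a2* UMI had 898 and 771 CPM (UMIs per 1000000) of the plasma cell gene *Igha*. A library is thus a pool of animals. The main tests below take library as a block, so that their p-values measure how differences between classes vary between both colon libraries. This variation may be in part technical.

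Fibroblasts of the intestinal LP build the extracellular matrix and form the niche of the crypt. Those beneath and around the crypt base secrete WNT agonists and antagonists of bone morphogenetic proteins (BMP), which keep epithelial stem cells dividing, whereas PDGFRα hi FB under the surface epithelium secrete BMPs and non-canonical WNT ligands. CD34-expressing FB around vessels and in the submucosa are marked by *Cd81*, *Pi16* or *Ackr4*.

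The share of *Col1a2*+ cells in the CD90 gate was 19.2% (exact binomial 95% interval 17.6 to 20.9%, 414 of 2154 cells) in colon replicate 1 and 13.3% (12.7 to 13.9%, 1655 of 12492 cells) in replicate 2. The same rule took 7 of 1344 cells (0.521%, 0.210 to 1.07%) in SI replicate 1 and 15 of 15157 cells (0.0990%, 0.0554 to 0.163%) in SI replicate 2. Both colon libraries thus lay far above both SI libraries, and no test was made, since an exact permutation test of 2 libraries against 2 cannot pass the threshold. Intervals cover counting error only. The colon libraries differ in depth, with a median of 9603 and 4583 UMIs per member. Depth bears on the rule in both directions, since it asks for UMIs of some genes and for none or few of others. After each cell was thinned to 2000 UMIs, the shares were 9.76% and 9.07% in colon and 0.0834% and 0.0254% in SI. With UMIs per cell made equal, the shares of both colon libraries lay closer together than as counted. Only UMIs per cell were matched in this way. This left out 95 and 1407 colonic cells that passed the quality limits but had fewer UMIs.

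**Figure D1:**
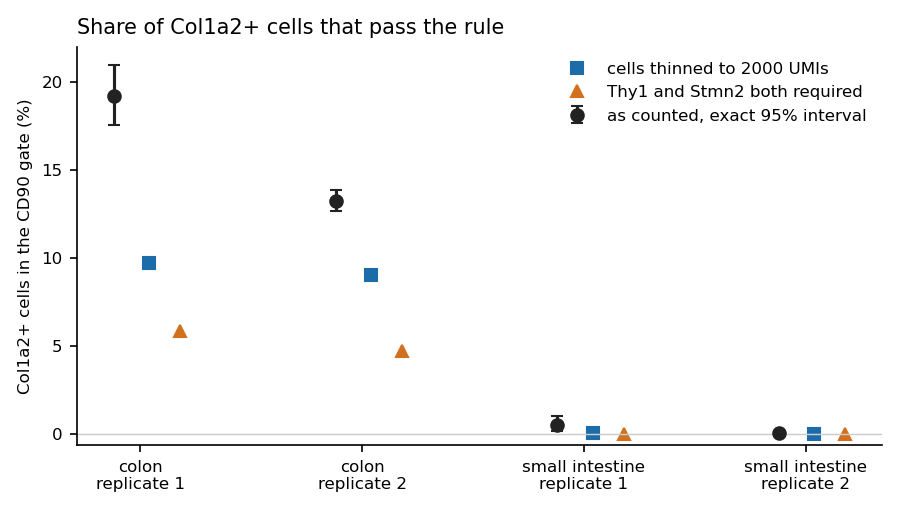
Share of Col1a2+ cells that pass the rule (y axis, percent) in each of the 4 libraries (x axis). Circles with bars give the share as counted with its exact 95% interval, squares the share after thinning each cell to 2000 UMIs and triangles the share when Thy1 and Stmn2 are both required. The colon libraries read 19.2% and 13.3% as counted and 9.76% and 9.07% after thinning, and all SI values lie below 1%.

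Quality measures of the members were close to those of the cells they were compared with. Mitochondrial UMIs had a median of 2.22% in the members of either colon library, against 2.16% and 2.43% in the other *Col1a2*+ cells, whose median depth was 9230 and 3834 UMIs. Barcodes called doublets made up 1.45% and 2.18% of the members and 1.44% and 3.86% of the other cells. The colon libraries shared 0 cell barcodes with each other, up to 69 were shared by any pair of libraries in the series, and 0 members shared a barcode.

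Levels below are UMIs of a gene per 1000000 UMIs of all genes (CPM), summed over the cells of a class in a library, and pairs of values are given for colon replicate 1 first and replicate 2 second. The members' sums rest on 4009539 and 7695192 UMIs. *Thy1* encodes a glycosylphosphatidylinositol-anchored surface glycoprotein (chromosome 9, 44043384 to 44048579, GRCm38) and was at 292 and 229 CPM in members and 55.6 and 33.5 CPM in the other *Col1a2*+ cells. *Stmn2* encodes a stathmin that destabilizes microtubules and is best known from neurons (chromosome 3, 8509360 to 8561606). Its level was 354 and 644 CPM in members and 25.0 and 27.9 CPM in the other cells. *Osr1*, a zinc finger transcription factor of mesenchymal progenitors, stood at 300 and 349 CPM against 62.1 and 72.0 CPM. Both remaining markers lie next to each other on the plus strand of chromosome 13. *Edil3* (88821472 to 89323223), which encodes a secreted integrin ligand, had 212 and 273 CPM in members and 35.8 and 40.8 CPM in other cells. *Hapln1* (89539796 to 89611652), the link protein that ties proteoglycans to hyaluronan, had 33.4 and 66.7 CPM against 5.68 and 6.78 CPM.

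The 5 markers were not equally particular to the gate among colonic cells. *Thy1* was also high in the CD81 gate, that is *Col1a2*+ cells with a UMI of *Pi16* or *Ackr4* and at most 1 of the 4 genes of PDGFRα hi FB (161 and 1829 cells), at 213 and 83.5 CPM. *Stmn2* had only 29.1 and 37.6 CPM there. The Fgfr2 gate was defined as *Col1a2*+ cells with an *Fgfr2* UMI, 0 UMIs of *Thy1*, *Stmn2*, *Pi16* and *Ackr4* and at most 1 of the 4 genes (227 and 949 cells). It had intermediate *Edil3*, at 90.9 and 83.5 CPM. In SI, *Col1a2*+ cells outside the gate had 5.98 and 1.43 CPM of *Thy1* and 1.99 and 0.0226 CPM of *Stmn2*, but 26.5 and 30.7 CPM of *Edil3* and 34.5 and 54.0 CPM of *Osr1*. The share of *Col1a2*+ cells with a *Stmn2* UMI was 9.33% and 10.8% in colon and 0.744% and 0.0132% in SI, at median depths of 9311, 3952, 8224 and 2795 UMIs. *Hapln1* was detected in 6.50% and 4.59% of these cells in colon and 0.595% and 0.224% in SI, and *Edil3* in 26.2% and 17.3% against 14.2% and 7.93%. All 5 markers were thus detected in a smaller share of SI cells, *Osr1* included (25.9% and 24.2% against 17.3% and 12.6%). In the PDGFRα hi gate of colon (at least 2 of the 4 genes, 795 and 2858 cells), *Stmn2* was detected in 4.28% and 3.67% of cells, and *Thy1* in 11.7% and 4.97%. In the same gate of SI, *Thy1* was detected in 0% and 0.107% of cells (174 and 932 cells). These shares are given for comparison, and how much of them is free RNA was not tested.

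**Figure D2:**
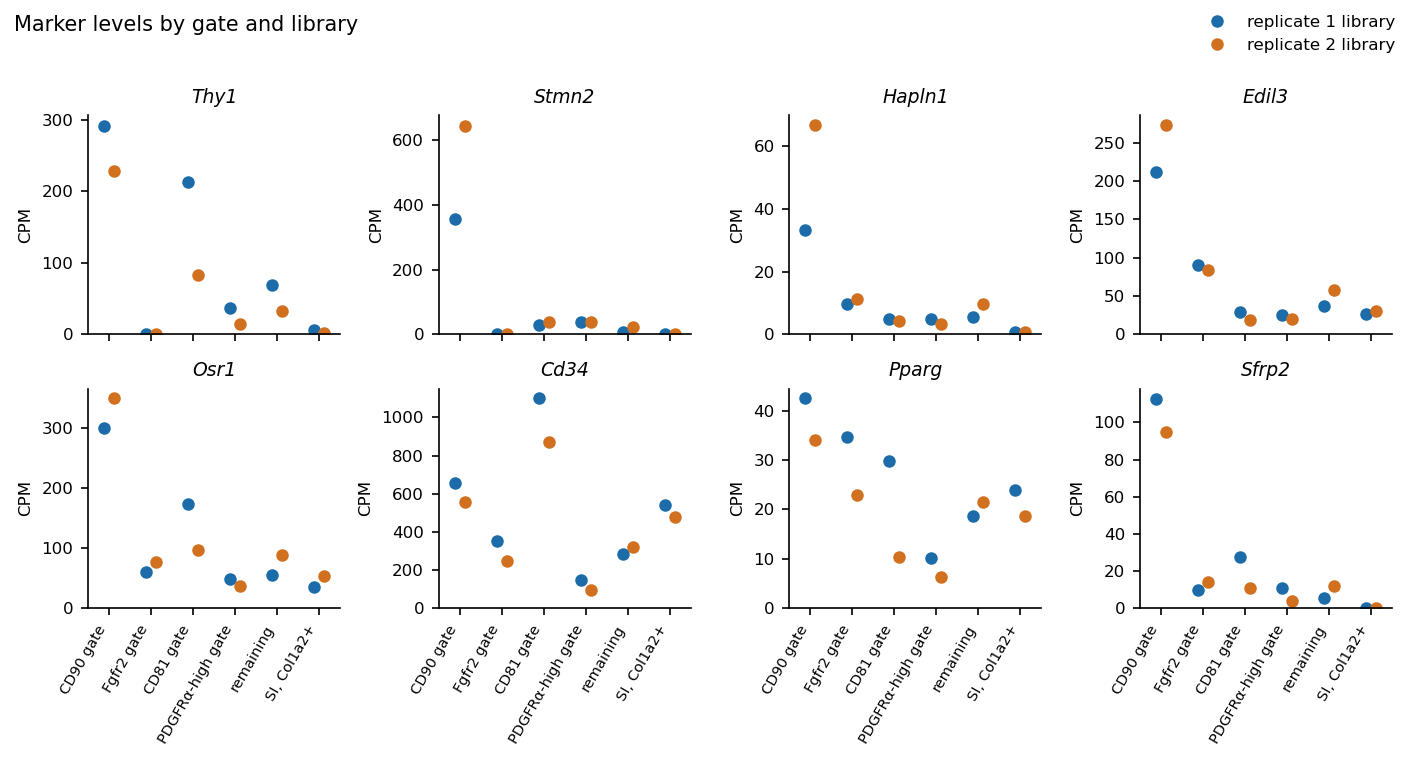
Level in CPM (y axis, linear from 0) of the 5 markers of the rule and of Cd34, Pparg and Sfrp2 in the 5 disjoint classes of colonic Col1a2+ cells and in SI Col1a2+ cells outside the CD90 gate (x axis), 1 point per library. The genes of the rule are high in the CD90 gate by construction. Thy1 is also high in the CD81 gate, and Sfrp2, which the rule did not use, reads 112.5 and 94.7 CPM in the CD90 gate and at most 27.7 CPM in any other class.

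The label was checked with genes that the rule did not use. *Pparg*, the nuclear receptor that the study used to find these cells in tissue, had 42.7 and 34.2 CPM in members and 16.8 and 14.8 CPM in the other *Col1a2*+ cells. It stood at 34.7 and 23.0 CPM in the Fgfr2 gate and did not pass the edgeR test described below (adjusted p = 0.612), so that this test did not separate the members from that gate. *Cd34*, a sialomucin of stromal progenitors, had 654 and 554 CPM against 288 and 344 CPM. *Dcn*, a proteoglycan of fibroblasts, stood at 10657 and 12228 CPM against 5728 and 8623 CPM. *Pdgfra* was at 157 and 139 CPM against 501 and 325 CPM, a direction that the rule favours, since it removes PDGFRα hi FB from the members only. In the Fgfr2 and CD81 gates, which carry the same exclusion, *Pdgfra* was at 190.5 and 163.5 and at 185 and 174 CPM. Since *Thy1* and *Stmn2* are also genes of T cells and neurons, markers of both were summed. The 9 T cell markers together gave 2.99 and 3.90 CPM in members, with 0 UMIs of *Cd8a* in either library and of *Cd3d* and *Cd3g* in replicate 1. Of the 11 neuronal markers, which summed to 7.23 and 4.16 CPM, *Snap25*, *Nefl* and *Chrna3* had 0 UMIs in both libraries. The 8 glial markers summed to 3.99 and 3.77 CPM, with *Sox10* and *Gfap* at 0 in both libraries. By *Cd34* and *Dcn* the members were CD34+ FB.

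Within the gate the members were graded. Exactly 2 markers were detected in 837 members, 3 in 731, 4 in 389 and all 5 in 112. *Thy1* was detected in 94.4% and 72.5% of members, *Stmn2* in 36.2% and 63.1%, *Edil3* in 71.0% and 63.5%, *Osr1* in 64.5% and 71.3% and *Hapln1* in 20.05% and 19.5%. *Thy1* without *Stmn2* marked 875 members, *Stmn2* without *Thy1* 478 and both 716. The libraries differed in this respect, as *Stmn2* without *Thy1* made up 5.56% of members in replicate 1 and 27.5% in replicate 2.

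Several genes outside the rule were graded with the number of markers detected, which is described without a test since the same cells were chosen by these markers. *Sfrp2*, a secreted modulator of WNT signalling, had 31.6 and 53.0 CPM in members with 2 markers, 107 and 108 CPM with 3 and 263 and 133 CPM with 4 or 5. Just outside the threshold, cells with *Thy1* or *Stmn2* as their only marker (156 and 596 cells) had 4.86 and 14.5 CPM. Cells with at least 2 of *Hapln1*, *Edil3* and *Osr1* but neither *Thy1* nor *Stmn2* (43 and 352 cells) had 57.4 and 76.8 CPM and thus lay inside the range of members. *Gda*, which encodes guanine deaminase, followed the same order, with 29.2 and 46.9 CPM at 1 marker, 54.4 and 71.1 CPM at 2 and 128 and 109 CPM at 4 or 5. The opposite order was seen for *Ebf1*, a transcription factor that was high in the CD81 gate (526 and 512 CPM). It read 348 and 134 CPM at 1 marker, 35.4 and 50.9 CPM at 2 and 4.86 and 3.36 CPM at 4 or 5. *Il33*, an alarmin cytokine, was at 40.3 and 27.8 CPM at 2 markers and 3.89 and 5.28 CPM at 4 or 5, and the eosinophil chemokine *Ccl11* at 1657 and 305 CPM and 303 and 69.7 CPM. *Ebf1*, *Il33* and *Ccl11* were thus lowest in the members with most markers in both libraries. Not every gene was graded. *Pparg* read 40.8 and 29.9 CPM at 2 markers, 50.8 and 39.1 CPM at 3 and 36.9 and 33.2 CPM at 4 or 5. *Isl1*, a LIM homeobox factor, went from 54.4 to 98.1 CPM between 2 and 4 or 5 markers in replicate 1 but from 94.9 to 91.8 CPM in replicate 2. The median depth was 9733 and 4230 UMIs in members with 2 markers and 9988 and 4994 UMIs in those with 4 or 5.

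**Figure D3:**
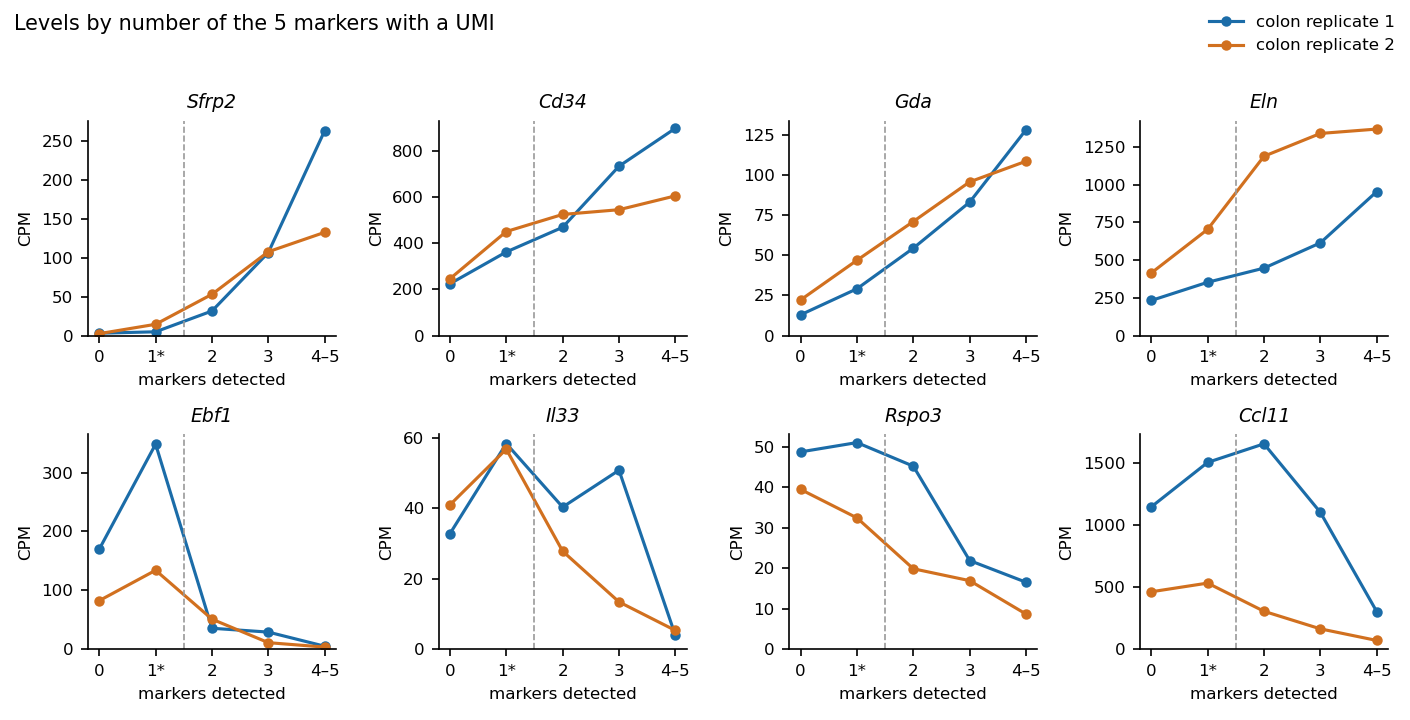
Level in CPM (y axis, linear from 0) of 8 genes outside the rule by the number of the 5 markers with a UMI (x axis), 1 line per colon library. The dashed line is the threshold of the rule, and 1* stands for cells whose only marker is Thy1 or Stmn2. Sfrp2, Cd34, Gda and Eln are highest at 4 or 5 markers, and Ebf1, Il33, Rspo3 and Ccl11 are lowest there in both libraries.

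Cells that failed the rule on its excluding genes give the other edge. Those with the markers but also *Pi16* or *Ackr4* (59 and 201 cells) had 487 and 482 CPM of *Ebf1* and 771 and 506 CPM of *Cd81*, near the CD81 gate (776 and 594 CPM of *Cd81*). Their *Sfrp2*, 57.3 and 41.8 CPM, was above that gate (27.7 and 10.8 CPM). Those with the markers and at least 2 of the 4 genes of PDGFRα hi FB (69 and 122 cells) had 59.9 and 44.9 CPM of *Sfrp2* and 225 and 291 CPM of *Pdgfra*. Members with *Stmn2* alone were also set beside those with *Thy1* alone, a comparison chosen after the values had been seen. Of 10535 genes tested with edgeR 73 (0.693%) differed at an adjusted p under 0.05, but DESeq2 called 1, and without library as a block edgeR called 0, with 87 genes at an unadjusted p under 0.05. In replicate 1 the *Stmn2* side held only 23 cells. *Il33* was at 0 and 6.72 CPM with *Stmn2* alone and 51.3 and 33.9 CPM with *Thy1* alone, and *Ccl11* at 229 and 124 CPM against 1575 and 322 CPM.

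To ask what sets the CD90 gate apart from the other colonic MSC, the UMIs of each class were added up within each library, and these sums entered edgeR's quasi-likelihood test, with library as a block. Against all other *Col1a2*+ cells, 1509 of 12933 genes (11.7%) passed a Benjamini-Hochberg adjusted p of 0.05, 577 higher (4.46%) and 932 lower (7.21%) in members. This fit has 1 residual degree of freedom, and on simulated counts it called more unchanged genes than its adjusted p allows. Its p-values are therefore given sparingly, and the values in each library carry the description. Without library as a block, edgeR called 0 genes, with 671 at an unadjusted p under 0.05, while DESeq2 with the block called 817. The rule excludes cells with 2 or more of *Sox6*, *F3*, *Foxl1* and *Bmp7*, so that genes of PDGFRα hi FB had to be lower in the members.

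Among called genes whose higher class held 50 or more UMIs in both libraries, the largest rise was that of *Sfrp2*, at 112.5 and 94.7 CPM in members and 10.7 and 9.50 CPM in the other cells (log2 fold change 3.37, SE 0.09, adjusted p = 2.09e-05). In SI *Sfrp2* had 0 and 0.0452 CPM. *Aldh3a1*, an aldehyde dehydrogenase, was at 25.2 and 18.6 CPM against 6.04 and 2.88 CPM, and *Spock3*, a testican proteoglycan, at 24.9 and 19.9 CPM against 5.98 and 3.39 CPM. *Gda* stood at 81.6 and 90.3 CPM against 19.2 and 24.4 CPM. *Tnfsf13b* encodes BAFF, the survival factor of B cells. It had 252 and 214 CPM in members and 78.6 and 54.2 CPM in the other cells (log2 fold change 1.86, SE 0.09, adjusted p = 0.000138). *Plxdc1*, *Gpnmb*, *S100a4*, *Pianp* and *Ddah1* complete the 10 genes with the largest folds, with log2 fold changes between 1.86 and 2.37. Of these, *S100a4*, a calcium-binding protein of fibroblasts and macrophages, differed most between libraries, with 28.4 and 180 CPM in members against 7.51 and 45.5 CPM. The choice of these 10 required a rise in each library. That of *Plxdc1* was a log2 fold change of 1.56 in replicate 1 and 2.90 in replicate 2.

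The 10 genes with the largest falls were *Elovl7*, *Htr1f*, *Gm2115*, *Gpr39*, *F730016J06Rik*, *Gm19557*, *Wif1*, *Spp1*, *Il1rl1* and *Slco4a1*. In the PDGFRα hi gate *Elovl7* was at 26.8 and 29.7 CPM, *Wif1* at 71.9 and 58.4 CPM and *Spp1* at 21.1 and 67.9 CPM, so that the exclusion in the rule bears on their direction. *Elovl7*, a fatty acid elongase, had 0 UMIs in members and 15.3 and 12.01 CPM in the other cells, which is at least 50.3-fold lower against a floor of 3 counts over both libraries. *Wif1*, a secreted WNT inhibitor, had 2 UMIs in members, a ratio of 155 (95% counting interval 42.8 to 1279). *Spp1*, which encodes osteopontin, also had 2 UMIs, a ratio of 162 (44.7 to 1337). The calls of these 3 genes depended on the fit, as *Elovl7* did not pass in DESeq2 (adjusted p = 0.303), and neither *Wif1* (adjusted p = 0.179) nor *Spp1* (adjusted p = 0.170) passed in edgeR when members were set against the mean of the 4 other gates. *Il1rl1*, the receptor of IL-33, was at 0 and 0.910 CPM in members against 64.7 and 35.9 CPM. Outside the top 10, the neuregulin *Nrg1* was at 9.23 and 12.4 CPM against 134.5 and 169 CPM, and the activin antagonist *Fst* at 0.998 and 3.77 CPM against 70.6 and 77.7 CPM.

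The promoters of *Sfrp2* and of *Isl1* are shown because both genes lay outside the rule, were highest in the CD90 gate among the colonic classes in each library and were near 0 in SI. Each runs from 250 bases before to 50 bases after the transcript start, read 5′ to 3′ on the gene's strand (RefSeq, GRCm38.p6). Sfrp2 lies at chr3:83766071-83766370 on the plus strand and Isl1 at chr13:116309639-116309938 on the minus strand. Capitals mark matches on either strand to the motifs searched. These were TATAAA, which positions transcription at some core promoters, then CCAAT, which is bound by nuclear factor Y, further GGGCGG, which is bound by Sp1 and its relatives, and lastly CANNTG, the site of basic helix-loop-helix factors. Matches to the second and the last can overlap.
Sfrp2: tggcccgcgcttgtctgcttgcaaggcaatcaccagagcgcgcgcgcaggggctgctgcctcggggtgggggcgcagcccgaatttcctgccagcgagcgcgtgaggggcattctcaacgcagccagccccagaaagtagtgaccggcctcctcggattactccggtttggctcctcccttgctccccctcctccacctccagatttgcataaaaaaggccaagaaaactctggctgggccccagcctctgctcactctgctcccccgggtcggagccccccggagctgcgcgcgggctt
Isl1: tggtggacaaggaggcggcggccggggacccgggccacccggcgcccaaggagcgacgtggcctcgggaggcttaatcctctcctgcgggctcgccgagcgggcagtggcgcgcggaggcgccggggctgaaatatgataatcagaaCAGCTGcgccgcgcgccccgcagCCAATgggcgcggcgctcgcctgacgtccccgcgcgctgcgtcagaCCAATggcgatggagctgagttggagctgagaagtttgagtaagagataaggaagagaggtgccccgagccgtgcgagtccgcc
The *Sfrp2* window holds 0 matches to these motifs, and the *Isl1* window 2 of CCAAT and 1 of CANNTG. Of 32851 RefSeq promoters of this length, 37.4% hold CCAAT, 72.3% CANNTG, 35.7% GGGCGG and 13.6% TATAAA, so that these matches are common. No promoter of *Thy1*, *Stmn2*, *Edil3* or *Osr1* was in the table used.

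Of both gates set beside the members, fewer genes differed from the Fgfr2 gate. An *Fgfr2* UMI was also detected in 48.1% and 24.1% of members, so that *Fgfr2* does not split the CD90 gate from the Fgfr2 gate. In a single edgeR fit over 5 disjoint classes and both libraries, 323 of 12685 genes (2.55%) differed, 139 higher (1.10%) and 184 lower (1.45%) in the CD90 gate. Against the CD81 gate, 1818 of 12686 genes (14.3%) differed, 792 higher (6.24%) and 1026 lower (8.09%). All 3 comparisons share the sums of the members. The genes that define either gate were left out. Without library as a block, edgeR called 0 genes against the Fgfr2 gate, with 500 at an unadjusted p under 0.05, and 105 against the CD81 gate. The median log2 fold change over all genes was 0.001 against the Fgfr2 gate and -0.007 against the CD81 gate.

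The genes with the largest rises against the Fgfr2 gate included matrix and surface genes. *Emilin2*, an elastin microfibril interfacer, was at 31.9 and 67.8 CPM against 2.55 and 12.6 CPM (log2 fold change 2.59, SE 0.32, adjusted p = 0.00522). *Col8a1*, a short-chain network collagen, was at 108 and 159.5 CPM against 23.5 and 33.6 CPM (log2 fold change 2.23, SE 0.17, adjusted p = 0.000111). *Gpnmb*, *Spock3* and *S100a4* were among the 10 largest here too, with log2 fold changes of 2.65, 2.53 and 2.21, as were the G protein subunit *Gngt2* (2.27), the hyaluronan receptor *Layn* (1.96), *Pianp* (1.94), the complement regulator *Cd55* (1.77) and the stromal sialomucin *Cd248* (1.72). *Pianp*, *Cd55* and *Cd248* missed the threshold once doublets were removed (adjusted p = 0.131, 0.0843 and 0.0740). *Pianp* also missed it with RLE normalization in place of TMM (adjusted p = 0.0502) and with no filter on low counts (adjusted p = 0.140). *Cd248* read 412 and 313 CPM in members against 131 and 90.2 CPM. *Sfrp2*, at 9.70 and 13.8 CPM in the Fgfr2 gate, had a log2 fold change of 3.01 with an SE of 0.61 and did not pass (adjusted p = 0.0946).

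Genes lower in members than in the Fgfr2 gate included growth factors and chemokines. *Cxcl14*, a chemokine of stromal cells, was at 83.1 and 36.0 CPM against 295 and 226 CPM (log2 fold change -2.21, SE 0.30, adjusted p = 0.0213), and missed the threshold with no filter on low counts (adjusted p = 0.0637). *Nrg1*, at 44.4 and 72.1 CPM in the Fgfr2 gate, passed narrowly (log2 fold change -2.47, SE 0.42, adjusted p = 0.0483) and missed in DESeq2 and with no filter on low counts, as did *Ces1g* and *Pappa* under the latter. The interferon-induced *Cxcl10* was at 227 and 572 CPM against 513 and 2004 CPM. *Col6a5*, an alpha chain of collagen VI, was at 5.99 and 5.85 CPM against 26.0 and 59.0 CPM. The remaining 6 of the 10 largest falls were *Ces1g*, *S1pr3*, *Slitrk6*, *Nnat*, *Pappa* and *Mab21l2*, with log2 fold changes between -3.02 and -1.50.

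Set against the CD81 gate, the members were higher in *Cd36*, a fatty acid translocase, with 21.7 and 12.6 CPM against 0.692 and 0.754 CPM (log2 fold change 4.15, SE 0.62, adjusted p = 0.00243). *Hpse*, which encodes heparanase, was at 225 and 219 CPM against 21.5 and 19.8 CPM (log2 fold change 3.33, SE 0.18, adjusted p = 1.08e-06). The non-canonical WNT ligand *Wnt4* was at 140 and 414 CPM against 24.9 and 40.3 CPM, and *Adamdec1*, a metalloprotease-like gene of intestinal FB and macrophages, at 3680 and 1553 CPM against 227 and 302 CPM. *Ndst3*, *Spock3*, *Fgd6*, *Pawr* and the lactate receptor *Hcar1* were the others among the 10 largest, together with *Igha*. The log2 fold change of *Ndst3* was 1.72 in replicate 1 and 4.55 in replicate 2, and that of *Adamdec1* 3.88 and 2.25. *Igha* is an immunoglobulin heavy chain gene of plasma cells and read 26.7 and 39.0 CPM in members against 1.39 and 3.39 CPM, a call that was lost with no filter on low counts (adjusted p = 0.0903). The 12 myeloid, B cell and plasma cell markers summed to 244 and 155 CPM in members, 82.5 and 165 CPM in the other *Col1a2*+ cells and 11.1 and 20.3 CPM in the CD81 gate. In members *Ms4a1* and *Itgax* had 0 UMIs. The part of such RNA in the difference was not tested.

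Among genes lower in members than in the CD81 gate were *Angptl1*, an angiopoietin-like protein (0.249 and 2.47 against 113 and 74.2 CPM), and *Pcolce2*, a procollagen C-endopeptidase enhancer (11.2 and 25.5 against 563 and 580 CPM). *Has1*, a hyaluronan synthase, was at 109 and 232 CPM against 2235 and 1632 CPM (log2 fold change -3.78, SE 0.53, adjusted p = 0.0131). *Cilp*, a matrix protein of cartilage and fibroblasts, had 6.73 and 10.1 CPM against 337 and 440 CPM. *Cd81* itself, which the gate did not use, was at 134 and 75.5 CPM against 776 and 594 CPM (log2 fold change -2.85, SE 0.31, adjusted p = 0.00227). *Cmah*, *Flrt3*, *Hoxb2*, *Lrrn4cl*, *Adamtsl3* and the unnamed *1700019D03Rik* make up the rest of the 10 largest falls. Levels of these 10 did not overlap between the gates, which a choice by size and by direction in each library favours. The share of all genes without overlap was not counted. The size of these falls varied between libraries, as *Has1* had a log2 fold change of -4.49 in replicate 1 and -2.92 in replicate 2.

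**Figure D4:**
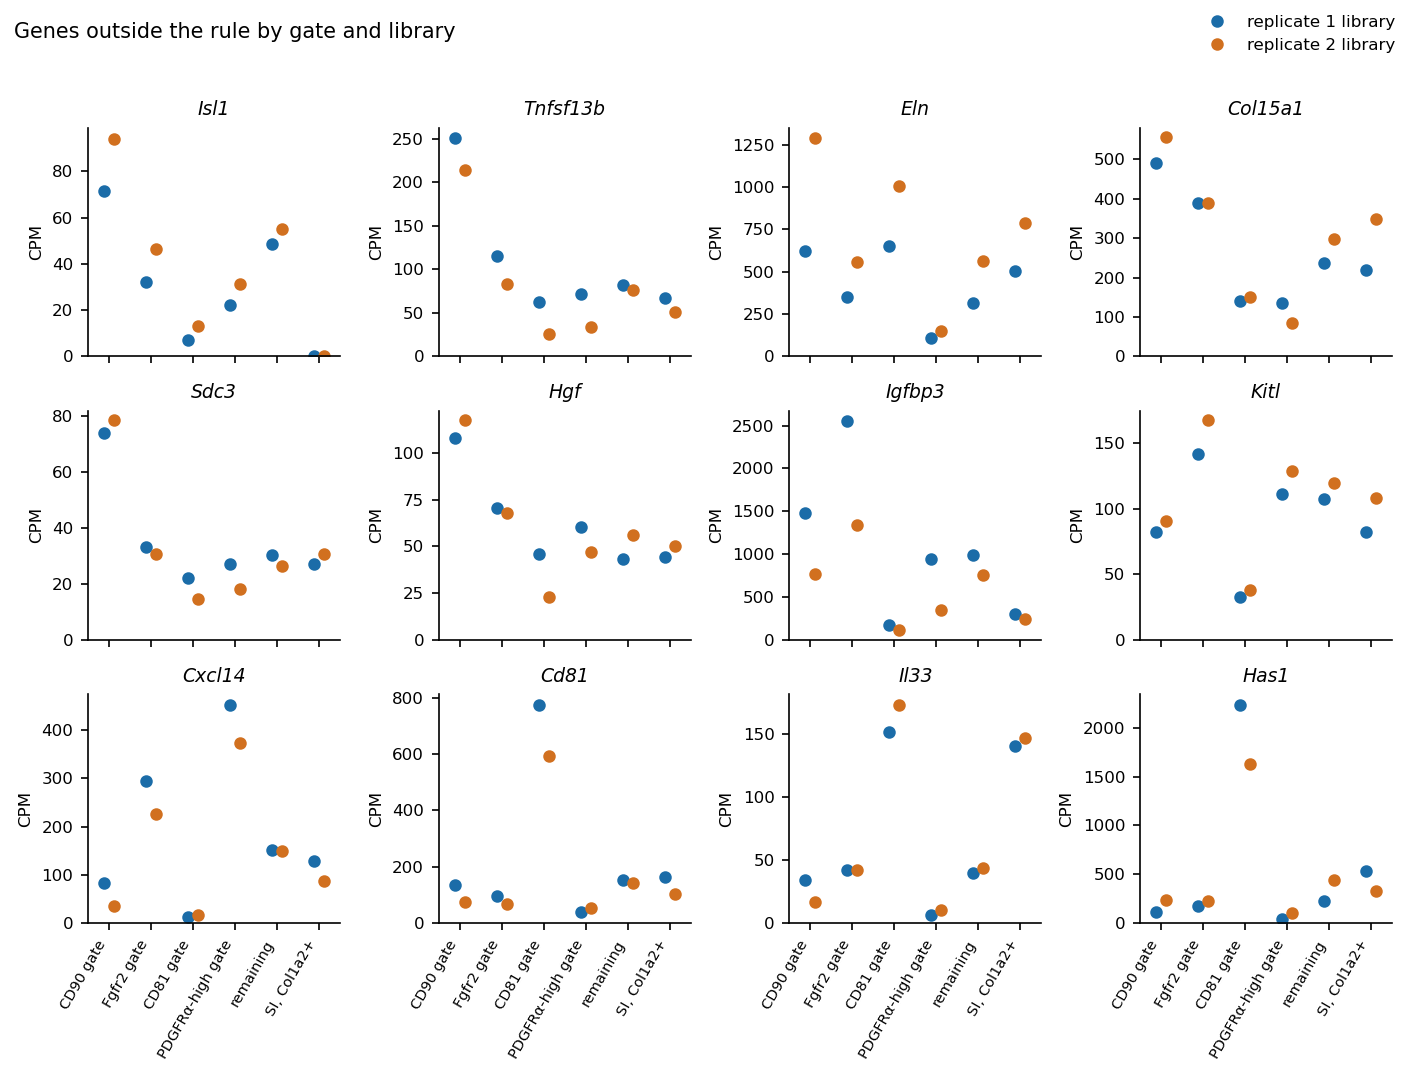
Level in CPM (y axis, linear from 0) of 12 genes that the rule did not use, in the 5 colonic classes and in SI Col1a2+ cells outside the CD90 gate (x axis), 1 point per library. Isl1, Tnfsf13b, Col15a1, Sdc3 and Hgf are highest in the CD90 gate in both libraries. Cd81, Il33 and Has1 are highest in the CD81 gate, and Kitl, Igfbp3 and Cxcl14 are higher in the Fgfr2 gate than in the CD90 gate.

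Of 16 genes that mark CD34+ FB in many tissues, 5 were higher and 0 lower than in the Fgfr2 gate (31.2% called, median log2 fold change 0.66), and DESeq2 called 9 higher and 0 lower. Against the CD81 gate 1 was higher and 11 were lower (median -1.03). *Cd34* read 654 and 554 CPM in members, 352 and 245 CPM in the Fgfr2 gate (log2 fold change 1.03, adjusted p = 0.0175) and 1100 and 871 CPM in the CD81 gate (-0.82, adjusted p = 0.0104). *Mfap5*, a microfibril protein, went the same way with 640 and 647, 369 and 315 and 1221 and 1303 CPM, as did *Cd55* and *Cd248*. For these genes the CD90 gate thus lay between both other gates. *Gsn*, which encodes gelsolin, was the most abundant listed gene that passed in neither, at 14470 and 15264 CPM in members, 7619 and 7767 CPM in the Fgfr2 gate and 20966 and 18417 CPM in the CD81 gate. *Col15a1*, a collagen of perivascular basement membranes, was the exception. It was higher in members (490 and 556 CPM) than in the CD81 gate (141 and 152 CPM, log2 fold change 1.71, adjusted p = 0.00282), and at 388 and 388 CPM in the Fgfr2 gate it did not pass (adjusted p = 0.461).

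Of 36 genes of the interstitial matrix, 6 were higher and 2 lower than in the Fgfr2 gate (median log2 fold change 0.06), and the 6 were *Col8a1*, *Eln*, *Fbn1*, *Mfap5*, *Tnxb* and *Loxl1*. *Eln*, *Fbn1*, *Mfap5* and *Loxl1* belong to elastic fibres. *Eln*, which encodes tropoelastin, was at 625 and 1292 CPM against 349 and 559 CPM (log2 fold change 1.03, SE 0.13, adjusted p = 0.00253), and *Fbn1*, the main microfibril protein, at 402.5 and 674 CPM against 203 and 330.5 CPM (1.01, SE 0.11, adjusted p = 0.00115). *Loxl1*, which cross-links elastin, was at 585 and 418 CPM against 350 and 236 CPM. Against the CD81 gate 4 were higher and 13 lower. *Eln* (654 and 1008 CPM there, adjusted p = 0.906) and *Loxl1* (589 and 362 CPM, adjusted p = 0.973) did not pass, whereas *Fbn1* was lower in members (log2 fold change -0.84). *Postn*, the matricellular periostin, was higher in members at 4498 and 2225 CPM against 1167 and 794 CPM. *Col3a1* passed in neither comparison.

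Of 17 basement membrane genes, 0 differed from the Fgfr2 gate in edgeR or DESeq2. With 2.55% of all genes called in edgeR, this lies near the background, and 1 was higher and 4 lower at an unadjusted p under 0.05. Against the CD81 gate 5 were higher and 5 lower (58.8% called, against 14.3% of all genes). *Col4a1* was higher (544 and 651 against 341 and 453 CPM) and *Nid1* lower (166 and 157 against 296 and 409 CPM). Of the genes that bind hyaluronan with *Hapln1*, *Vcan*, which encodes versican, was at 311 and 495.5 CPM in members against 179 and 327.5 CPM in the CD81 gate (log2 fold change 0.57, SE 0.13, adjusted p = 0.00843). The hyaluronan receptor *Cd44* was lower (62.6 and 74.2 against 60.9 and 143 CPM, adjusted p = 0.0385), although not in replicate 1. *Edil3* binds integrins, and of 17 integrin and syndecan genes *Sdc3*, a transmembrane proteoglycan, was the only 1 that edgeR called against the Fgfr2 gate (73.8 and 78.5 against 33.2 and 30.6 CPM, log2 fold change 1.26, SE 0.17, adjusted p = 0.00305). DESeq2 called 2 higher there, and at an unadjusted p under 0.05 in edgeR 5 were higher and 1 lower. *Sdc3* was also higher than in the CD81 gate, with *Sdc1*, *Sdc2* and *Itgb8*.

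Of 17 other stathmin, microtubule and growth-cone genes, 0 were higher in members in any of the 3 comparisons in edgeR. With 4.46%, 1.10% and 6.24% of all genes higher, this lies near the background, and 3 had an unadjusted p under 0.05 against the Fgfr2 gate and DESeq2 called 2 higher there. *Stmn1* was at 9.48 and 11.3 CPM in members and 11.4 and 19.98 CPM in the other *Col1a2*+ cells. *Stmn4* was lower than in the CD81 gate (3.49 and 8.32 against 13.2 and 56.6 CPM, adjusted p = 8.10e-06). *Gap43*, the growth-cone protein, was at 0.499 and 0.390 CPM against 14.5 and 35.9 CPM, and *Fez1* and *Marcks* were lower too.

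Epithelial niche factors were mixed. Of 20 WNT agonists, BMP antagonists and epidermal growth factor family genes, 1 was higher and 2 lower than in the Fgfr2 gate, and 3 were higher and 8 lower than in the CD81 gate (median log2 fold change -0.68). *Rspo3*, the R-spondin that amplifies WNT signals, was lower in members (31.2 and 15.7 CPM) than in both the Fgfr2 gate (46.0 and 40.8 CPM, adjusted p = 0.0185) and the CD81 gate (65.1 and 45.7 CPM, adjusted p = 0.000275). *Grem1*, a secreted BMP antagonist, read 358 and 350.5 CPM in members, 226 and 312.5 CPM in the Fgfr2 gate and 974 and 478 CPM in the CD81 gate, and passed in no comparison. *Hgf*, the hepatocyte growth factor, was higher than in the CD81 gate (108 and 118 against 45.7 and 22.6 CPM, log2 fold change 1.84, SE 0.31, adjusted p = 0.00964), and so was *Wnt2b* (120 and 21.3 against 49.9 and 10.2 CPM). *Fstl1* was higher than in the Fgfr2 gate and lower than in the CD81 gate.

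Of 17 BMP ligands and WNT modulators, 6 were higher and 2 lower than in the CD81 gate, against 1 and 1 for the Fgfr2 gate. *Bmp4* was at 822 and 809 CPM in members and 332 and 286 CPM in the CD81 gate (log2 fold change 1.29, SE 0.12, adjusted p = 1.40e-05), and 686 and 704 CPM in the Fgfr2 gate, which did not pass. *Bmp5* was intermediate, lower than in the Fgfr2 gate (124 and 93.2 against 174 and 144 CPM, adjusted p = 0.0432) and higher than in the CD81 gate (18.7 and 21.5 CPM, adjusted p = 2.82e-06). *Sfrp1*, a paralogue of *Sfrp2*, was at 897 and 525 CPM in members and 1057 and 958 CPM in the Fgfr2 gate and passed in neither comparison. *Sfrp2* was higher than in the CD81 gate (log2 fold change 2.62, SE 0.58, adjusted p = 0.0454).

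Of 32 transcription factors, 11 were higher and 14 lower than in the CD81 gate (78.1% called, against 14.3% of all genes). Against the Fgfr2 gate 1 was higher and 1 lower (6.25% called, against 2.55% of all genes). *Isl1*, which specifies several mesodermal and neural lineages, was higher against both, at 71.6 and 94.1 CPM in members, 32.2 and 46.2 CPM in the Fgfr2 gate (log2 fold change 1.07, SE 0.13, adjusted p = 0.00141) and 6.92 and 13.2 CPM in the CD81 gate (2.81, SE 0.15, adjusted p = 4.06e-07). SI *Col1a2*+ cells had 0 and 0.249 CPM. *Tcf21*, a bHLH factor of visceral mesenchyme, was at 2606 and 586 CPM in members and 673 and 141 CPM in the CD81 gate. Its level differed more between the libraries than between the gates, with the members above the CD81 gate in each (log2 fold change 1.89, SE 0.10, adjusted p = 4.06e-07). *Gli1*, a target of Hedgehog signalling, was lower than in either gate (19.7 and 20.7 against 31.7 and 36.6 and 35.3 and 41.4 CPM). Of 23 Hox genes, *Hoxd13*, the most posterior of its cluster, was higher than in the Fgfr2 gate (4.99 and 10.9 against 0 and 2.72 CPM, adjusted p = 0.0390) and *Hoxd8* lower (2.74 and 2.34 against 12.3 and 11.9 CPM, adjusted p = 0.00522). Against the CD81 gate the 4 higher were *Hoxa9*, *Hoxa10*, *Hoxa11* and *Hoxa13* and the 7 lower *Hoxd8* and 6 genes of the Hoxb cluster.

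**Figure D5:**
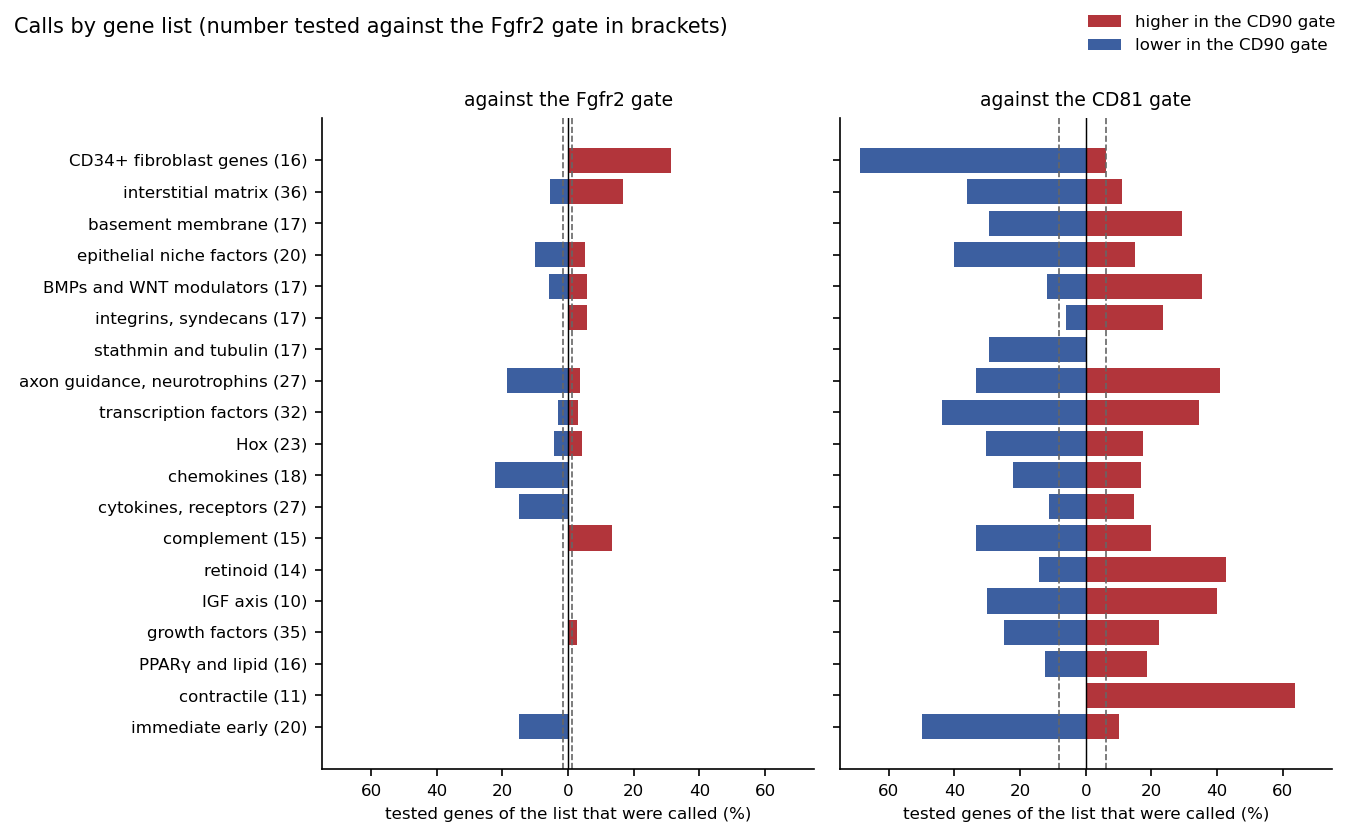
Percent of the tested genes of each list (y axis, with the number tested against the Fgfr2 gate) that were called higher (red, to the right) or lower (blue, to the left) in the CD90 gate against the Fgfr2 gate (left) and the CD81 gate (right). Dashed lines give the percent of all genes called in that direction, 1.10% and 1.45% on the left and 6.24% and 8.09% on the right. Of the 16 genes of CD34+ FB, 5 are called higher and 0 lower on the left, and 1 higher and 11 lower on the right.

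Among immune mediators the calls against the Fgfr2 gate were of lower genes. Of 18 chemokines and receptors 4 were lower (*Cxcl14*, *Cxcl10*, *Ccl2* and *Cxcl1*) and 0 higher, and of 27 cytokines and receptors 4 were lower (*Kitl*, *Il4ra*, *Il1r1* and *Osmr*) and 0 higher. In DESeq2 7 chemokines were lower and 0 higher, but the cytokine list split evenly, with 2 lower and 2 higher. At an unadjusted p under 0.05 in edgeR, 1 chemokine and 6 cytokine genes were higher. *Kitl*, the ligand of KIT, was at 81.8 and 90.7 CPM against 142 and 168 CPM (log2 fold change -0.85, SE 0.09, adjusted p = 0.00115), but higher than in the CD81 gate (32.6 and 38.2 CPM, adjusted p = 1.28e-05). *Tnfsf13b*, at 115 and 83.3 CPM in the Fgfr2 gate, did not pass there (adjusted p = 0.114) and was higher than in the CD81 gate (63.0 and 26.1 CPM, log2 fold change 2.48, SE 0.33, adjusted p = 0.00494). *Cxcl12* was higher than in the CD81 gate (2817 and 1117 against 810 and 367 CPM, adjusted p = 6.75e-06) and did not pass against the Fgfr2 gate (2985 and 1308 CPM). *Il33* was lower than in the CD81 gate (33.9 and 16.4 against 152 and 173 CPM, log2 fold change -2.91, SE 0.33, adjusted p = 0.00249), as were *Il6* and the monocyte chemokine *Ccl2*. Of 15 complement genes, *C4b* was at 312 and 360 CPM in members and 134 and 81.1 CPM in the CD81 gate (log2 fold change 1.61, SE 0.29, adjusted p = 0.0140). In SI *Col1a2*+ cells *C4b* was at 1051 and 1066 CPM.

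In 3 further lists edgeR called 0 genes against the Fgfr2 gate, where 2.55% of all genes were called, namely 16 genes of PPARγ and lipid metabolism, 14 of retinoid metabolism and 10 of the insulin-like growth factor (IGF) axis. At an unadjusted p under 0.05 each list held 4 genes, and DESeq2 called 1 in the first and 2 in each of the others. *Pparg* itself read 34.7 and 23.0 CPM in the Fgfr2 gate and 29.8 and 10.3 CPM in the CD81 gate, and passed against neither (adjusted p = 0.612 and 0.0603). Against the CD81 gate *Lpl*, the lipoprotein lipase, was higher (304 and 277 against 104 and 127 CPM). So were *Rbp4* (324 and 156 against 69.2 and 61.2 CPM), which carries retinol, and the retinaldehyde dehydrogenases *Aldh1a3* (116.5 and 78.2 against 36.0 and 26.3 CPM) and *Aldh1a2*. *Igfbp3* was at 1474 and 764 CPM against 177 and 110 CPM (log2 fold change 2.80, SE 0.24, adjusted p = 0.000332), and *Igfbp6* (280 and 433 against 1346 and 1691 CPM) and *Igf1* were lower. Of 35 genes of growth factor signalling 1 (2.86%, near the 2.55% of all genes) differed from the Fgfr2 gate, namely *Ctgf* (452 and 569 against 248 and 297 CPM, log2 fold change 0.90, SE 0.14, adjusted p = 0.00737). Symbols on 2 rows of the table were left out of the lists, among them *Ltbp4*, of which 1 row was higher than in the Fgfr2 gate.

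Axon guidance and neurotrophin genes showed *Slit3* higher (96.8 and 81.4 against 45.5 and 43.0 CPM) and *Ntf3*, *Unc5b*, *Nrp2*, *Mdk* and *Robo2* lower than in the Fgfr2 gate, 6 of 27 tested. Against the CD81 gate 11 were higher and 9 lower. *Nrp1*, a receptor of semaphorins and VEGF, was higher (334 and 506 against 158 and 153 CPM, adjusted p = 7.05e-05), and *Slit3* was lower (287 and 220 CPM in the CD81 gate, adjusted p = 1.45e-05).

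Transcripts of other cell types differed in all 3 comparisons. Against all other *Col1a2*+ cells 5 of 7 pericyte markers and 4 of 6 markers of interstitial cells of Cajal were lower in members. There 7.21% of all genes were lower, and *C1qa* was higher as 1 of 8 myeloid, B cell and plasma cell markers. *Etv1*, 1 of the 6, was also lower than in the Fgfr2 gate. Against the CD81 gate contractile genes, which mark smooth muscle cells and myofibroblasts, were higher in members for 7 of 11 genes (median log2 fold change 1.52). They summed to 6288 and 1684 CPM in members, 1742 and 907 CPM in the CD81 gate and 7204 and 3115 CPM in the Fgfr2 gate. *Acta2* was at 2276 and 486 CPM against 549 and 219 CPM (adjusted p = 0.0233). The 8 smooth muscle markers summed to 1328 and 370 CPM in members and 310 and 182 CPM in the CD81 gate. The endothelial marker *Pecam1*, at 10.5 and 1.95 CPM in members, was called higher than in both gates in edgeR. It had 0 UMIs in the Fgfr2 gate of replicate 1, and DESeq2 called 0 of 8 tested endothelial markers against that gate. The 9 endothelial markers summed to 66.1 and 15.9 CPM in members, 15.3 and 14.8 CPM in the Fgfr2 gate and 63.7 and 75.6 CPM in the CD81 gate. In the CD81 gate *Tek* alone made up 59.6 and 69.95 CPM of this sum and was lower in members (8.23 and 5.33 CPM, adjusted p = 1.08e-06), while *Cdh5* (adjusted p = 0.0375) and *Egfl7* (adjusted p = 0.0241) were higher in members. Immediate early genes, which tissue digestion can induce, were lower in members for 3 of 20 against the Fgfr2 gate and 10 of 20 against the CD81 gate. *Hspa1a* and *Hspa1b* of this list were higher than in the CD81 gate. *Zfp36* was at 3896 and 1295 CPM in members, 5555 and 1738 CPM in the Fgfr2 gate and 7203 and 1933 CPM in the CD81 gate. Their part in the other differences was not tested.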

How the data were processed

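The 4 deposited matrices hold UMI counts per gene and cell barcode. The authors made these counts with Cell Ranger (per the file headers, version 3.0.2 made both replicate 1 matrices and version 3.1.0 both replicate 2 matrices) on mm10 and filtered them before deposit. Seurat 3 is named in the submitters' processing notes. The labels name more than 1 library chemistry without saying which library used which, so chemistry, Cell Ranger version, depth and experiment cannot be told apart. Libraries held 14341443 to 52269372 UMIs in 34983 barcodes.

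Cells were kept at 500 genes, 1000 UMIs and 10% mitochondrial UMIs, and the rule and gates were then applied to raw counts. Raw counts were summed per library and class. Sums were tested with edgeR 4.0.16 in R 4.3.3 (TMM, filterByExpr, quasi-likelihood, library as a block), and a gene was called where its Benjamini-Hochberg adjusted p was under 0.05. The test of CD90 gate against all other cells used 4 sums, and both comparisons between gates came from 1 fit of 10 sums. Alternatives used DESeq2 1.42.0 and other filters. Doublets were called with scrublet (scanpy 1.11.5) and kept in the main values. The scripts were tested on simulated counts. Named genes were, for each test and direction, the 10 called with the largest log2 fold change, 50 or more UMIs of the higher class in both libraries and the same direction in each library, and in each list the most abundant called genes and the most abundant one not called. Members, lists and gates were chosen with earlier results of these data known. Planned tests between colon and SI within the gate were not run, since the SI libraries held 7 and 15 such cells. Coordinates are from GENCODE on GRCm38.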

Additional observations from a re-analysis of the deposited data

Results flagged for a closer look

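A small number of SI cells passed the rule, which was written for colon, and these cells entered no comparison. There were 7 in SI replicate 1 and 15 in SI replicate 2, and 0 of them had a *Hapln1* UMI. They are listed here because they lie outside the colonic comparisons and above a count of 0. *Thy1* was detected in 100% of the 7 and 93.3% of the 15, and *Stmn2* in 0% and 6.67%. With at least 3 of the 5 markers required, the shares of *Col1a2*+ cells were 0% and 0.00660%, and with both *Thy1* and *Stmn2* required 0% in each SI library. Whether these cells differ from the colonic members was not tested.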

How the results depend on the processing

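The 3 comparisons kept at least 1 call under every alternative that had library as a block. All 60 named genes had the same direction in both libraries taken alone, but the naming rule required this. Against all other *Col1a2*+ cells the count of 1509 became 817 with DESeq2, 2513 with no filter on low counts, 360 (53 higher and 307 lower) with a log2 fold change above 1.5 also required, and 989 (528 higher and 461 lower, against 577 and 932) when members were set against the mean of the 4 other gates in the fit over 5 classes. This last setting changes both the contrast and the fit, and was chosen after the data had been seen. Against the Fgfr2 gate the count of 323 became 800 with at least 3 markers required. Without the replicate block, edgeR called 0 genes against all other cells (671 at an unadjusted p under 0.05), 0 against the Fgfr2 gate (500) and 105 against the CD81 gate. Between members with *Stmn2* alone and *Thy1* alone, the count of 73 became 1 with DESeq2 and 0 without the replicate block (87 at an unadjusted p under 0.05). The cause was not tested.

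Of the 20 named genes per comparison, 11 were called in every blocked fit against all other cells, 13 against the Fgfr2 gate and 19 against the CD81 gate. The fold differed by more than 1.5 times between the libraries for 8, 10 and 12 of them. With at least 3 markers, the share of *Col1a2*+ cells was 10.4% and 8.08% in colon and 0% and 0.00660% in SI. With *Thy1* and *Stmn2* both required it was 5.90% and 4.71% in colon and 0% in each SI library. Thinning gave 9.76% and 9.07% in colon and 0.0834% and 0.0254% in SI, and a minimum of 1000 genes moved colon replicate 2 to 14.2%. With 1 library left out, no test could be made. Doublet calling marked 1 barcode in SI replicate 2 and was not used for SI.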
